A study of Mus musculus with 4 samples.

Results

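The genes described here are 38 regulators of pre-mRNA splicing outside the hnRNP F/H and SR families, chosen by gene symbol from the 55401 genes of the deposited count table, together with the rows of the same genes in the deposited splicing table. They are the hnRNP A/B, C, D, K, L, M, R, Q and U proteins, RALY, and the auxiliary factors PTBP, CELF, MBNL, PCBP, QKI, SAM68, TIA, HuR, TDP-43 and RBM5, RBM10, RBM25 and RBM39. RNA was taken from follicular B (FOB) cells, mature B cells that recirculate through the follicles of the spleen, sorted as B220+CD93-CD23highCD21low from C57BL/6 mice aged 7 weeks. The 2 WT libraries came from Hnrnpf fl/fl mice without Cre and the 2 Hnrnpf KO libraries from Hnrnpf fl/fl mice with a Cre that is expressed in B cells, so both groups carried the floxed alleles. Effects of Cre itself and of the deletion cannot be told apart in this design. The libraries were a single experiment, and whether mice were pooled was not given in the sources used here, so p-values measure the spread between these samples, which may be technical.

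Splicing regulators of this kind bind short motifs in pre-mRNA and help or hinder the spliceosome at nearby splice sites. hnRNP A1, PTBP1 and hnRNP L are textbook repressors of exons, TIA1 aids weak 5′ splice sites by binding U-rich sequence, and MBNL, CELF and QKI act as repressors or activators depending on where they bind. Many of these genes regulate their own or a paralog's transcripts through alternative splicing, and hnRNP L-like is known as a regulator of CD45 exon choice in activated lymphocytes and plasma cells. The comparison asked which of them changed in abundance or splicing when hnRNP F was deleted in B cells.

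The libraries held between 15698567 and 18908963 counts. Hnrnpf itself went from 5780 and 6634 counts (WT) to 1167 and 1194 (Hnrnpf KO), which is the direction the labels give (log2 fold change −2.32, SE 0.06). All 8 B cell markers were detected, and 1 of them was called higher and 3 lower. Of the follicular B cell markers 2 were called higher and 2 lower, as were 2 and 2 of the marginal zone markers, and Cd93, by which cells were excluded in the sort, rose from 1.26 and 1.76 FPKM to 2.49 and 2.93. No marker of T cells, NK cells, plasma cells, germinal center B cells, monocytes, erythroid cells or platelets was called, and of the dendritic cell markers 1 was higher. The neutrophil markers summed to 8.89 and 12.8 FPKM in WT and to 22.0 and 35.8 FPKM in Hnrnpf KO, led by S100a8 and S100a9, both called higher, and 3 of the 5 were under 1 FPKM. Their part in the results below was not tested. In bulk RNA, fewer cells expressing a gene and less of its RNA per cell cannot be told apart.

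The abundance of these regulators differed little between the genotypes. All 38 genes passed the filter on low counts, and 1 of them, Tia1, was called lower in Hnrnpf KO at an adjusted p of at most 0.05 (2.63% of the 38), while none was called higher. Of the 14123 genes tested, 6.97% were called in either direction, 2.83% lower and 4.15% higher, and of the 3970 with 1000 counts or more on average, to which 35 of the 38 belong, 12.9% were called, beside 2.86% of those 35. By edgeR's quasi-likelihood test, 6 of the 38 had an unadjusted p under 0.05, 3 higher and 3 lower, against 20.3% of all tested genes. DESeq2 called none of the 38 and 621 genes in all. Limma on log2(FPKM + 0.1) and on log2(FPKM + 1) also called none of the 38, but only 45 and 41 genes in all. No member reached a fold of 2 with an adjusted p of at most 0.05, as 0.899% of all tested genes did. The members' log2 fold changes ran from −0.23 to 0.16 with a median of 0.01, beside a median of −0.0023 over all tested genes. The median size of the log2 fold change was 0.05 for the members, 0.14 for all tested genes and 0.08 for those 3970 abundant genes.

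**Figure D1:**
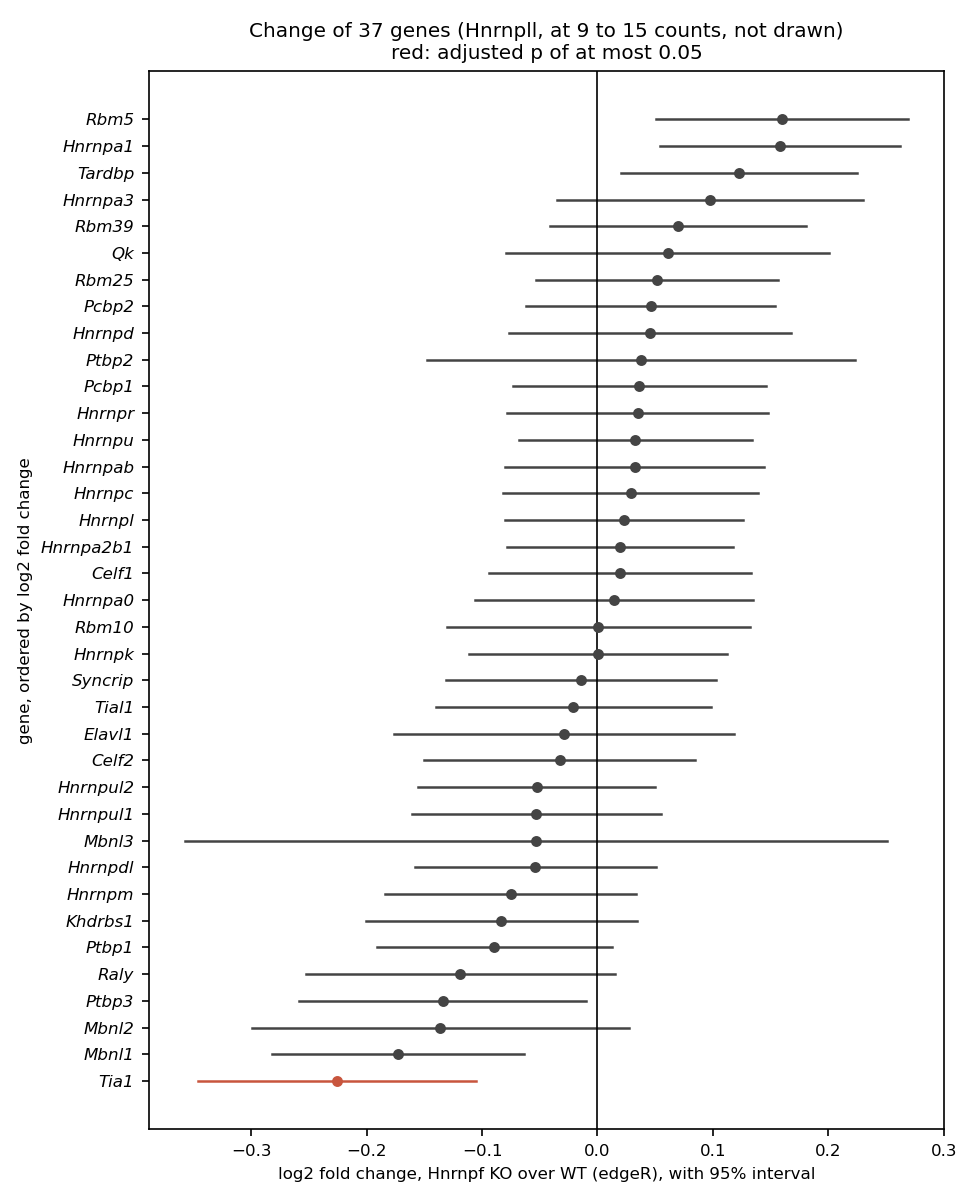
Log2 fold change of Hnrnpf KO over WT for 37 of the 38 genes, with 95% intervals from edgeR's quasi-likelihood fit of 2 libraries per genotype (x axis, log2 scale; y axis, genes ordered by their change). Tia1, in red, was the only one called of those drawn, and Hnrnpll, at 9 to 15 counts, was not drawn.

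The intervals bound what these libraries could have missed. For 32 of the 38 genes the 95% interval of the change lay within 1.2-fold in either direction, and for 37 it lay within 1.5-fold. The 6 genes outside the narrower bound were Tia1, Mbnl1, Rbm5, Mbnl2, Mbnl3 and Hnrnpll. The Hnrnpll counts were 13 and 13 (WT) and 9 and 15 (Hnrnpf KO), and its interval of −1.14 to 1.04 on the log2 scale was too wide to say whether it changed. In counts scaled to library size (CPM), the genotypes were apart for 20 of the 38 genes, 10 higher and 10 lower in Hnrnpf KO, which is 52.6% of the members beside 50.1% of all tested genes.

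Tia1, on chromosome 6 from 86404219 to 86433405 of GRCm38 on the plus strand, encodes an RNA-binding protein that recruits the U1 snRNP to weak 5′ splice sites and also acts in stress granules. Tia1 stood at 163 and 174 CPM in WT and at 146 and 142 in Hnrnpf KO. Both Hnrnpf KO libraries were below both WT libraries. The log2 fold change was −0.23 (SE 0.06, n = 2 per group, edgeR adjusted p = 0.027), a fall of 14.5% with a 95% interval of the Hnrnpf KO to WT ratio from 0.787 to 0.929. The call was lost without WT replicate 2 (adjusted p = 0.19), without Hnrnpf KO replicate 1 (0.063) and without Hnrnpf KO replicate 2 (0.096), and over all alternatives run its log2 fold change stayed between −0.27 and −0.18 with an adjusted p from 0.0051 to 0.20. Tial1, the paralog that encodes TIAR, was at 18.5 and 18.6 FPKM in WT and 17.9 and 18.4 in Hnrnpf KO (log2 fold change −0.02, SE 0.06). The difference between the paralogs was not tested.

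The genes next in order of p did not pass the threshold. Rbm5 and Ptbp3 lie outside the rule for named genes and were chosen after their values were seen. Mbnl1, the main muscleblind gene of these cells, was at 532 and 497 CPM in WT and at 456 and 457 in Hnrnpf KO (log2 fold change −0.17, SE 0.05, edgeR adjusted p = 0.060). Without WT replicate 2 its log2 fold change was −0.22 with an adjusted p of 0.030 by edgeR, without WT replicate 1 it was −0.12 with 0.31, and without Hnrnpf KO replicate 1 or 2 the adjusted p was 0.21 or 0.18. Hnrnpa1, which encodes an exon-repressing hnRNP, was at 293 and 293 CPM in WT and at 329 and 325 in Hnrnpf KO (0.16, SE 0.05, edgeR adjusted p = 0.072). Rbm5, whose product regulates exon choice in apoptosis genes, was at 447 and 469 CPM in WT and 499 and 524 in Hnrnpf KO (0.16, SE 0.05, edgeR adjusted p = 0.081). Tardbp, the gene of TDP-43, was at 378 and 383 CPM in WT and 415 and 413 in Hnrnpf KO (0.12, SE 0.05, edgeR adjusted p = 0.16). Ptbp3 was at 413 and 389 CPM in WT and 347 and 384 in Hnrnpf KO (−0.13, SE 0.06, edgeR adjusted p = 0.21), and its log2 fold change was −0.063 without Hnrnpf KO replicate 1 and −0.21 without Hnrnpf KO replicate 2. In each of these 5 genes the genotypes did not overlap in CPM, as in 50.1% of all tested genes. The 5 were taken in order of p from the same counts, so this adds no support. Rbm5 differed by 11.7% and Tardbp by 8.88%.

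**Figure D2:**
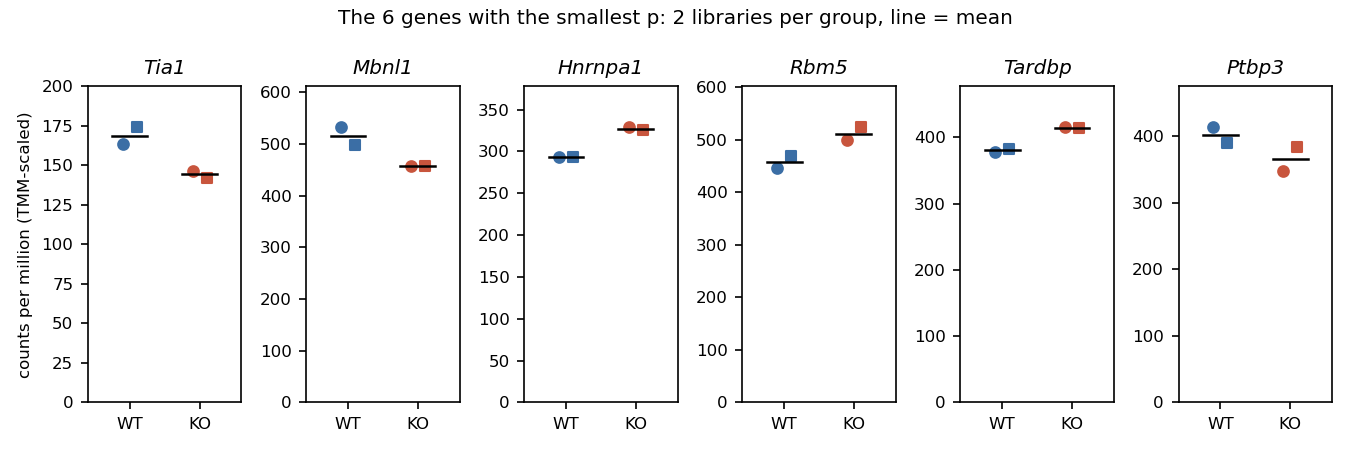
CPM, scaled by TMM, of the 6 genes with the smallest p, with a circle for replicate 1, a square for replicate 2 and a line at the mean (WT blue, Hnrnpf KO red, axes from 0). Tia1, Mbnl1 and Ptbp3 were lower in both Hnrnpf KO libraries, and Hnrnpa1, Rbm5 and Tardbp were higher.

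The levels themselves placed these regulators among the abundant genes of FOB cells. Their median was 34.3 FPKM, against 6.03 FPKM over all tested genes, and 29 of the 38 were above 10 FPKM. Together they took between 1.08% and 1.09% of the counts of a library, and their summed FPKM ranged from 1716 to 1736 across the 4 libraries. Pcbp1, a poly(C)-binding protein of RNA stability and translation, was at 141 and 144 FPKM in WT and 142 and 147 in Hnrnpf KO. Hnrnpa2b1 was at 141 and 145 FPKM in WT and 144 and 143 in Hnrnpf KO, and these top 2 genes did not differ in level beyond their spread. Hnrnpa0 followed at 105 and 115 FPKM in WT and 113 and 107 in Hnrnpf KO. At the other end were Ptbp2 at 4.98 to 5.66 FPKM, Mbnl3 at 1.72 to 2.22 FPKM and Hnrnpll at 0.05 to 0.07 FPKM. Of the 37 pairs of neighbours in the order of levels, 15 had separate FPKM ranges over the 4 libraries, and in 22 the ranges overlapped.

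**Figure D3:**
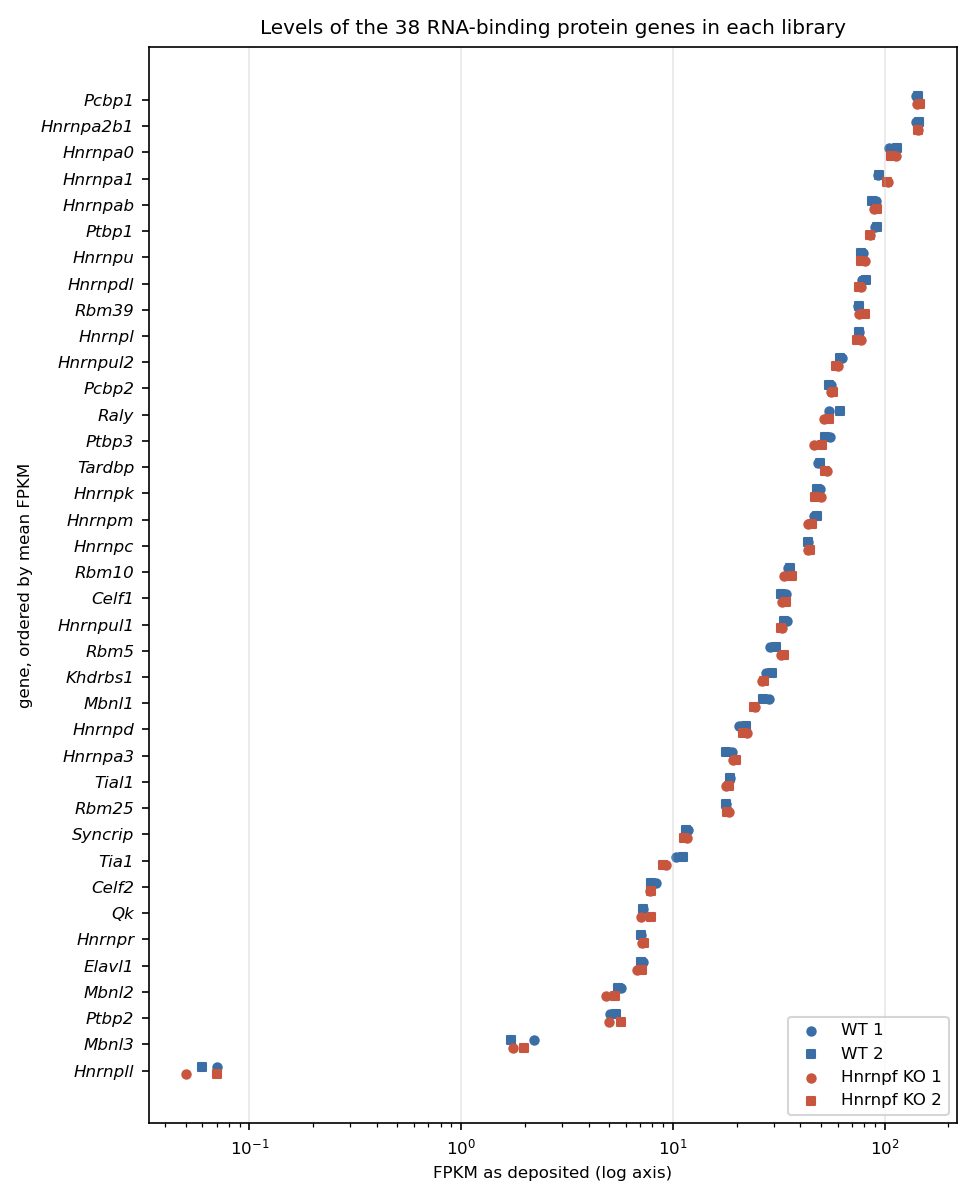
FPKM of the 38 genes in each library on a log axis, ordered by mean (WT blue, Hnrnpf KO red, circles for replicate 1 and squares for replicate 2). Pcbp1 and Hnrnpa2b1 led at about 143 FPKM, Hnrnpll was at 0.05 to 0.07 FPKM, and the 4 points of a gene lay close together at most levels.

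The remaining members mostly moved little as well, and the examples were chosen after their values were seen. Mbnl2, at 68.7 and 65.8 CPM in WT and 57.9 and 64.3 in Hnrnpf KO, moved more (log2 fold change −0.14, SE 0.08, edgeR adjusted p = 0.34). Khdrbs1, the gene of SAM68, and Qk, the gene of QKI, both of the STAR family of RNA-binding proteins, had log2 fold changes of −0.08 (SE 0.05) and 0.06 (SE 0.07). Elavl1, whose product HuR stabilizes AU-rich mRNAs, was at 7.23 and 7.06 FPKM in WT and 6.74 and 7.14 in Hnrnpf KO (−0.03, SE 0.07). Rbm39, a U2AF65-related coactivator of splicing, was at 74.6 and 75.8 FPKM and at 75.6 and 81.0 FPKM (0.07, SE 0.05). Rbm25 and Rbm10 were at 0.05 (SE 0.05) and 0.00069 (SE 0.06). Hnrnpm, Hnrnpul1, Hnrnpul2 and Hnrnpd had log2 fold changes of −0.08 to 0.05, and none of these genes passed the test.

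Some levels are uncertain because near-identical copies can share reads. Hnrnpa1 had a mean of 5338 counts, and Gm10052, identical to it over 752 aligned bases, had a mean of 1524. Hnrnpa3 had a mean of 1766 counts of its own, while its annotated copies summed to 2613, led by Gm6793 at 1315. Hnrnpk had 5428 counts beside 1678 in Gm7964, and Hnrnpc had a smaller share in Gm12696. With the counts of the copies added to their gene, the log2 fold change of Hnrnpa1 was 0.12 (edgeR adjusted p = 0.18) and that of Hnrnpa3 was 0.04 instead of 0.10. Genes that overlap another on the opposite strand carry a like limit, since the strand setting of the counting was not given in the sources used here. Pcbp1 overlaps 1600020E01Rik, which had a mean of 961 counts and was called higher (log2 fold change 0.34, edgeR adjusted p = 0.014), and Rbm10 overlaps Ndufb11 with a mean of 1156 counts.

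The make-up of the families differed little between genotypes. In each of the 11 families compared, the order of the paralogs by mean share was the same in WT and Hnrnpf KO. FPKM divide by the exonic size of the whole gene, which differs between paralogs, so the shares depend on that size. By mean counts, Pcbp2 (5023), Hnrnpr (2738), Tia1 (2705) and Hnrnpc (3261) were ahead of Pcbp1 (4538), Syncrip (2451), Tial1 (2190) and Raly (3169). The leading gene of the other families was the same by counts. In the hnRNP A/B family Hnrnpa2b1 held 30.7 to 31.5% of the summed FPKM, while the share of Hnrnpa1 was 20.7 and 20.4% (WT) against 22.2 and 22.0% (Hnrnpf KO). In the CELF family, whose proteins bind GU-rich sequence, Celf1 held 80.3 to 81.2% and Celf2 the rest. Their exonic sizes are 8446 and 25884 bases, and their mean counts were closer, at 4871 and 3564. Celf1 was at 34.2 and 32.5 FPKM in WT and 32.9 and 34.2 in Hnrnpf KO, and Celf2 was at 8.36 and 7.85 and at 7.80 and 7.92. Neither CELF gene differed beyond the spread of its libraries (log2 fold changes 0.02 with SE 0.05 and −0.03 with SE 0.05). Mbnl1 made up 76.8 to 78.7% of the MBNL family and Ptbp1 60.0 to 62.5% of the PTBP family. Ptbp1, the main polypyrimidine tract-binding protein outside neurons, was at 90.6 and 92.3 FPKM in WT and 85.5 and 85.1 in Hnrnpf KO (log2 fold change −0.09, SE 0.05, edgeR adjusted p = 0.32). Hnrnpl, the CA-repeat binding protein, made up 99.9% of its pair with Hnrnpll and ranged from 74.4 to 77.6 FPKM (0.02, SE 0.05). Hnrnpu, the nuclear scaffold protein, held 44.7 to 46.4% of the hnRNP U family and ranged from 77.0 to 80.7 FPKM (0.03, SE 0.05). Hnrnpdl held 77.6 to 79.2% of the hnRNP D pair at 75.5 to 81.5 FPKM (−0.05, SE 0.05). Pcbp1 held 71.5 to 72.5% of the PCBP pair, and Syncrip, the gene of hnRNP Q, held 60.7 to 62.4% of the R/Q pair at 11.2 to 11.8 FPKM (−0.01, SE 0.05). In the TIA pair, the share of Tia1 was 35.9 and 37.4% (WT) against 34.2 and 32.7% (Hnrnpf KO). Raly held 55.6 and 58.6% of the pair with Hnrnpc in WT and 54.2 and 55.1% in Hnrnpf KO. In CPM, Raly was at 180 and 201 (WT) against 170 and 181 (Hnrnpf KO), so the genotypes overlapped narrowly on that scale (log2 fold change −0.12, SE 0.06, edgeR adjusted p = 0.31), while in FPKM, at 54.8 and 61.4 against 51.6 and 54.5, they did not.

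**Figure D4:**
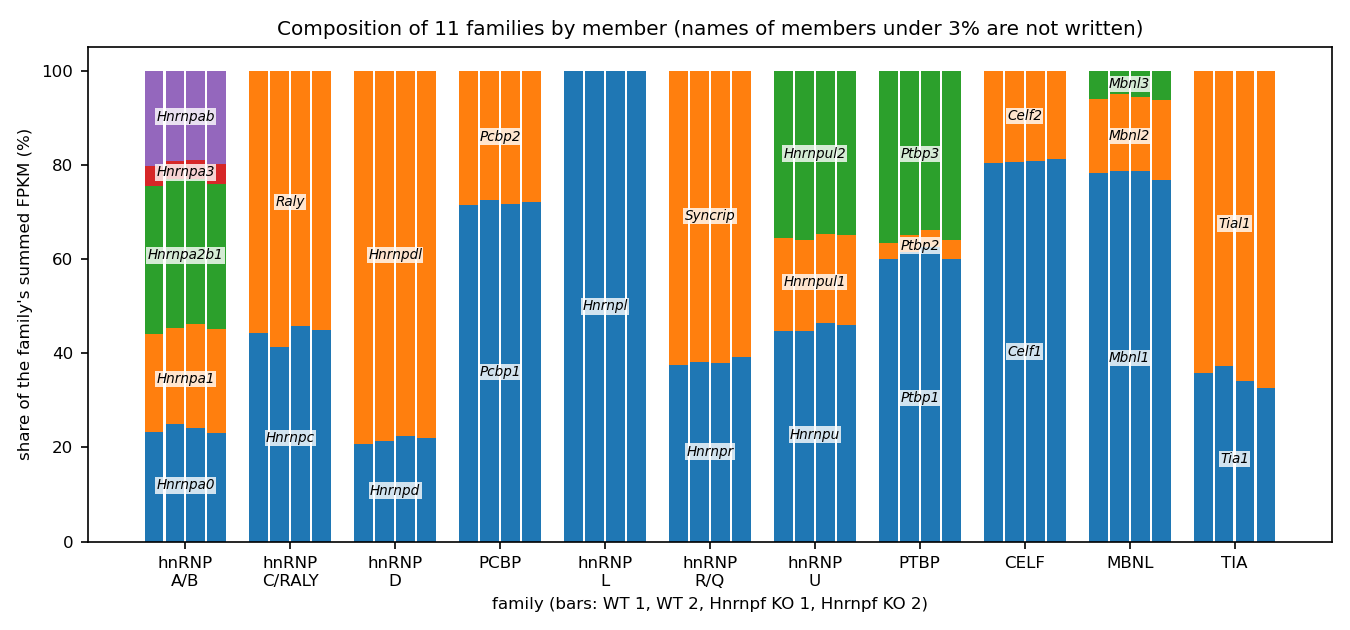
Share of each family's summed FPKM held by each member (y axis, percent), with 4 bars per family for WT 1, WT 2, Hnrnpf KO 1 and Hnrnpf KO 2. Celf1 held 80.3 to 81.2% of its pair and Mbnl1 76.8 to 78.7% of its family in every library, and the bars of a family were close to each other.

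The deposited splicing table lists 7 events in 6 of the 38 genes, and each difference below is the WT inclusion level minus that of Hnrnpf KO. Over all genes, the smallest listed difference is 0.1 in size and the largest FDR is 0.0498, so smaller changes are not listed. Hnrnpa2b1 has a pair of exon skipping events, at −0.286 (FDR 6.52e-14) and −0.156 (listed with an FDR of 0), both with more inclusion in Hnrnpf KO. Celf1 has a retained intron at −0.166 (FDR 0.0027), with more retention in Hnrnpf KO. Hnrnpr, which encodes hnRNP R, has an exon skipping event at −0.129 (FDR 0.036), and Tardbp has an alternative 5′ splice site at −0.106 (FDR 3.78e-06). Raly has an exon skipping event at 0.144 (FDR 1.65e-04) and Hnrnpab has an exon skipping event at 0.122 (FDR 6.33e-04), both with less inclusion in Hnrnpf KO. Of the 5 exon skipping events, 3 were more and 2 less included in Hnrnpf KO, and 64.6% of all 1017 listed exon skipping events were less included. The larger Hnrnpa2b1 event was exceeded in size by 29.1% of the listed exon skipping events, and the Hnrnpab event by 84.5%. The Tardbp event, near the smallest size listed, was exceeded by 97.2% of the listed alternative 5′ splice site events.

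**Figure D5:**
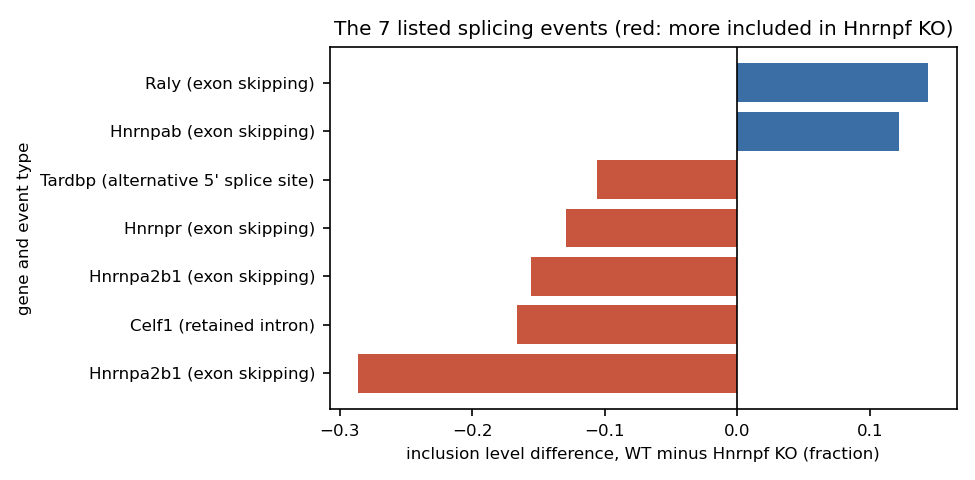
Inclusion level difference, WT minus Hnrnpf KO, of the 7 listed events (x axis, a fraction; y axis, gene and event type). Red bars, at −0.106 to −0.286, had more inclusion in Hnrnpf KO, and the blue bars of Raly and Hnrnpab, at 0.144 and 0.122, had less.

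The share of members with a listed event was close to that of genes of like abundance. A listed event was present in 6 of the 35 members that average 1000 counts or more (17.1%), beside 12.9% of all such genes. Of the 37 members averaging 100 counts or more the share was 16.2%, beside 10.6% of all such genes, and of all 38 it was 15.8%, beside 8.22% of all tested genes. None of the 6 was called in abundance, and Tia1 has no listed event. Hnrnpr, for example, was at 7.09 and 7.09 FPKM in WT and 7.14 and 7.27 in Hnrnpf KO (log2 fold change 0.03, SE 0.05), and Hnrnpab was at 91.2 and 87.7 FPKM and at 89.4 and 92.0 (0.03, SE 0.05).

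The splicing table has no coordinates, so the exon of each event cannot be told from it. The coding cassette exons that the GENCODE annotation of GRCm38 gives for these genes are shown because their inclusion would alter the protein, and runs of 3 or more G, the kind of sequence hnRNP F is known to bind, are in capitals. Each length is a multiple of 3, as is that of 56.0% of the coding cassette exons of 36 to 141 bases in all genes. The Hnrnpa2b1 exon of 36 bases, at chr6:51467391-51467426 on the minus strand, adds the 12 residues that distinguish isoform B1 from A2, and the exon of 120 bases, at chr6:51464428-51464547 on the minus strand, encodes part of the glycine-rich region. The Hnrnpab exon is at chr11:51601750-51601890 on the minus strand and the Raly exon at chr2:154859911-154859958 on the plus strand.
Hnrnpa2b1, 36 bases: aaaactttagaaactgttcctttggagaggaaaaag
Hnrnpa2b1, 120 bases: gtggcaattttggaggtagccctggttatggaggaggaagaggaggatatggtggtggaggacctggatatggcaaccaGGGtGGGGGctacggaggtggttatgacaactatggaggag
Hnrnpab, 141 bases: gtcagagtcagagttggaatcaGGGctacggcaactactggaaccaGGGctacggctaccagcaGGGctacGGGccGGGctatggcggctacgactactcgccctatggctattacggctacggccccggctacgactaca
Raly, 48 bases: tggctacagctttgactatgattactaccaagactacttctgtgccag
Only exon bases on the sense strand were searched for GGG, and the introns beside them were not. Of the 6014 coding cassette exons of 36 to 141 bases in all genes, 57.9% hold GGG. The Hnrnpab exon holds 5 such runs and the long Hnrnpa2b1 exon 2, while the Raly exon and the short Hnrnpa2b1 exon hold none. The annotation has 3 cassette exons of any kind in Hnrnpa2b1, 3 in Raly and 1 in Hnrnpab, so other exons than those shown could be the listed ones in Hnrnpa2b1 and Raly. No coding cassette exon was found for Hnrnpr, for which the annotation has 2 cassette exons of any kind.

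Related genes outside the 38 gave a reference for these small changes. Of the hnRNP F/H family, Hnrnph1 rose (log2 fold change 0.52, SE 0.06) and Hnrnph3 rose (0.78, SE 0.06), while Hnrnph2 and Grsf1 were not called. Of 46 further RNA-binding proteins that were tested, 2 rose and 2 fell. Among these, Son (0.29, SE 0.05) rose, and Rbm28 (−0.34, SE 0.06) and Taf15 (−0.21, SE 0.05) fell. Of 20 paralogs known mainly from other tissues, 18 were under 1 FPKM and 8 had no count in any library, which allows up to 3 counts each. Pcbp4, with 116 and 141 counts (WT) against 187 and 181 (Hnrnpf KO), was the only one called (0.60, SE 0.16, edgeR adjusted p = 0.045).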

How the data were processed

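The authors trimmed reads with Cutadapt 1.9.1, aligned them to GRCm38 with HISAT2 2.0.1 and counted them per gene with HTSeq 0.6.1. The deposited counts are whole numbers per gene and library, and the deposited FPKM were computed by the authors from the counts and the exonic gene size (all values equal the count divided by gene size and library total to within 0.01). The deposited splicing table, made by the authors with rMATS turbo, holds per event an FDR, which is an adjusted p-value, and an inclusion level difference on a fraction scale, for significant events alone and without values per library. No test was run on it. Strand setting and annotation release were not given in the sources used here.

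Counts were compared with edgeR 4.0.16 in R 4.3.3 (TMM, filterByExpr, quasi-likelihood test, Benjamini-Hochberg over 14123 genes). The common dispersion was 0.00348. DESeq2 1.42.0 and limma 3.58.1 on log2(FPKM + 0.1) and log2(FPKM + 1) were alternatives, beside those in the closing section. Named genes were those called, those with a listed event, Hnrnpa1, Hnrnpa2b1, Celf1, Celf2, the 3 highest and 3 lowest by FPKM and the largest member of each family. Other members named (Rbm5, Ptbp3, those given to account for all 38, and those with near copies or overlapping genes) were chosen after their values were seen. Members and lists were chosen with earlier results of these data known. Exons came from GENCODE. Near copies had at least 90% identity over 300 bases. Some genes of the lists are not reported here.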

Additional observations from a re-analysis of the deposited data

How the results depend on the processing

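Over the 12 alternative fits and the other thresholds, the median log2 fold change of the members stayed between −0.018 and 0.019. The number of members called lower was 0 by DESeq2, by limma on log2(FPKM + 0.1) and on log2(FPKM + 1), with the replicate block, with a fold of at least 2 and at an adjusted p of 0.01, and 2 without a filter on low counts and at an adjusted p of 0.1. Leaving out each library in turn gave 0 to 1. The number called higher was 1 without the filter and 2 at an adjusted p of 0.1. The number of all genes called was 985 in the main fit and 1470 without the filter. It was 621 by DESeq2, 45 and 41 by limma and 612 with the replicate block. With a fold of at least 2 it was 127, at an adjusted p of 0.01 it was 392, and at 0.1 it was 1514. The replicate numbers are shared by the groups, but same-numbered libraries did not deviate together (correlation −0.0831 over 9875 genes). Members with an event whose difference exceeds 0.2 in size numbered 1, while the median size over all 1556 listed events was 0.194. Adding the counts of near copies was chosen after seeing the data. It left the number of members called the same, and 988 genes were called in all.

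Signs changed in genes whose difference was near 0, and the cause was not tested. Hnrnpk was at −0.00052 with RLE size factors, −0.00046 by DESeq2, −0.0021 without the filter, and −0.011 and −0.011 by limma. Rbm10 was at −0.00022 with RLE, −0.00024 by DESeq2, −0.0018 without the filter, −0.013 and −0.013 by limma, −0.00088 with the replicate block and −5.3e-05 with near copies added. With each library left out in turn, log2 fold changes ran from −0.045 to 0.081 for Hnrnpa0, −0.0018 to 0.10 for Hnrnpd, −0.039 to 0.041 for Hnrnpk, −0.00023 to 0.047 for Hnrnpl, −0.36 to 0.18 for Hnrnpll, −0.036 to 0.0094 for Syncrip, −0.064 to 0.13 for Ptbp2, −0.017 to 0.061 for Celf1, −0.079 to 0.019 for Celf2, −0.23 to 0.14 for Mbnl3, −0.021 to 0.14 for Qk, −0.049 to 0.0080 for Tial1, −0.077 to 0.017 for Elavl1 and −0.073 to 0.071 for Rbm10. Without a sign change, the range was −0.21 to −0.063 for Ptbp3, −0.19 to −0.035 for Raly, 0.055 to 0.15 for Hnrnpa3 and 0.12 to 0.20 for Rbm5. A group left with 1 library was assumed to vary like the other. Depth limits Hnrnpll, at a mean of 12.5 counts, and Mbnl3, at 289.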
